A study of Gallus gallus with 21 samples.

Results

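NEK10, UBAP1L, SOUL and CCDC169 are 4 of the 18631 genes measured in the retina of control chickens, chosen by symbol as genes of little known retinal function whose level differed widely between 1, 3 and 6 days. Their levels at the 3 ages selected them, so differences between ages are given below as a description, with no test. How often the ranges of the ages separate was not counted over all genes, so separations given below describe the members alone. All 4 passed the filter on low values, which kept 12614 genes, and each was also followed in the libraries that hold transcripts of the W chromosome, the sex chromosome that hens carry and cocks lack. RNA after depletion of ribosomal RNA was sequenced from 21 retinal libraries, 7 per group, of wild-type White Leghorn chickens that wore no lens. Time was counted from postnatal day 3, so that the groups of 1, 3 and 6 days were collected, per the labels, on postnatal day 4, 6 and 9. The birds served as controls in a study of how the eye compensates for defocus imposed by a lens. The groups show retinal transcripts at 3 ages without a lens. The library numbers do not interleave between ages. Any difference in collection or processing between the groups therefore cannot be told apart from age. Sex is not labelled, and the source bird of a library is not stated either, so p-values measure the spread between libraries, which may be technical in part.

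The members belong to unrelated families. NEK10 is a kinase of the NIMA-related family, many of whose members act at centrosomes and cilia, and in humans it is needed for motile cilia of the airway. UBAP1L is a relative of UBAP1, a subunit of the ESCRT-I complex, which sorts ubiquitin-marked membrane proteins into vesicles for degradation, and variants of the human gene have been linked to retinal dystrophy. SOUL is a heme-binding protein first described in the retina and pineal gland of the chicken, with HEBP1 and HEBP2 as its relatives. CCDC169 carries a coiled-coil name, and no role is given for it here.

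Levels are in CPM, which puts every library on one common total of reads. Estimated totals were 27.7 to 41.4 megareads per library, of which the genes in the table held 29.9% to 34.2%. That share was 29.9% to 31.9% at 1 day, 30.8% to 33.3% at 3 days and 32.9% to 34.2% at 6 days. Its ranges at 1 and 6 days did not overlap, and its part in the differences between ages was not tested. The W-linked gene HINTW ranged from 121 to 147 CPM in 13 libraries, while the other 8 held 0.0286 to 0.549 CPM, on either side of the 10 CPM used to divide them. Of the 7 libraries per age, 3, 4 and 6 had W-linked transcripts at 1, 3 and 6 days, so this division and age were not balanced. Retinal identity was plain, with PDE6H, a cone phosphodiesterase subunit, at a median of 644 CPM and GLUL, an enzyme of Müller glia, at 551 CPM. Markers of other cell types were low. Summed markers of lens ran from 2.73 to 4.32 CPM over 8 genes and those of fibroblast and sclera from 1.69 to 4.21 CPM over 7 of 8 genes. The 10 pigment epithelium markers summed to a median of 8.22 CPM at 1 day (6.27 to 9.88), 9.95 CPM at 3 days (8.35 to 14.3) and 8.71 CPM at 6 days (7.79 to 10.4). Leukocyte markers, 4 of 6 in the table, summed to 5.72 CPM (3.71 to 7.37), 7.14 CPM (5.26 to 8.95) and 6.70 CPM (5.22 to 7.71). Both sums had their highest median at 3 days, the age at which NEK10, UBAP1L and CCDC169 were highest, with ranges that overlapped between ages, and their part in the courses of these genes was not tested. Single markers differed: MLANA, CRYAA, MIP and COL1A1 had a median of 0, while RPE65 had one of 3.17 CPM, LRAT 2.34 CPM, BFSP1 3.18 CPM and COL2A1 1.77 CPM. Of the 11 erythroid markers 1, TFRC, was in the table, so blood was not checked.

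NEK10 lies on chromosome 2 of GRCg6a, from 38166793 to 38378674 on the minus strand, and overlaps no other gene of the table. Its level at 1 day ran from 2.33 CPM over a median of 3.08 to 5.00 CPM. At 3 days the lowest library stood at 4.09, the median at 7.07 and the highest at 10.2 CPM. At 6 days the values were 2.16, 2.57 and 3.43 CPM. The 3-day libraries thus stood above both other ages, and all 7 lay above every 6-day library, while 6 of 7 lay above every 1-day library. The overlap with 1 day came from library C44R at 3 days, with 4.09 CPM, and library C21R at 1 day, with 5.00 CPM. Group means were 3.23 ± 0.887, 7.09 ± 1.87 and 2.67 ± 0.524 CPM (SD, n = 7 each), a ratio of 2.20 from 1 to 3 days and of 0.377 from 3 to 6 days. On the log2(CPM + 0.5) scale the difference was +1.02 (SE 0.16) from 1 to 3 days, −1.24 from 3 to 6 days and −0.22 from 1 to 6 days. Among the genes kept, 14 had a larger increase from 1 to 3 days and 15 a larger decrease from 3 to 6 days.

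UBAP1L lies on chromosome 10, from 18190660 to 18202518 on the plus strand. At 1 day the libraries were close together, with a lowest value of 3.96, a median of 4.38 and a highest of 5.16 CPM. At 3 days they spread from 5.80 over 8.66 to 15.1 CPM, and at 6 days from 2.92 over 3.98 to 5.12 CPM. No 3-day library overlapped either other age, and the 1-day and 6-day ranges overlapped. The highest value, 15.1 CPM, was that of library C31L. Means were 4.37 ± 0.409, 9.36 ± 3.02 and 4.00 ± 0.787 CPM (SD, n = 7 each), a ratio of 2.14 from 1 to 3 days and of 0.427 from 3 to 6 days. The log2 difference was +0.97 (SE 0.14) from 1 to 3 days, −1.10 from 3 to 6 days and −0.13 from 1 to 6 days. The size of the spread also differed by age, with a coefficient of variation of 9.37% at 1 day, 32.3% at 3 days and 19.7% at 6 days.

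SOUL lies on chromosome 5, from 58929202 to 58939829 on the plus strand, and had a different course. Its lowest, median and highest levels were 38.0, 50.0 and 61.7 CPM at 1 day. They were 69.9, 111 and 124 CPM at 3 days and 65.5, 93.6 and 112 CPM at 6 days. Every library of 3 and of 6 days lay above every library of 1 day, and the 3-day and 6-day ranges overlapped. Means were 51.1 ± 8.49, 102 ± 17.9 and 93.6 ± 16.6 CPM (SD, n = 7 each), a ratio of 2.004 from 1 to 3 days and of 1.83 from 1 to 6 days. The log2 difference was +0.99 (SE 0.13) from 1 to 3 days, −0.13 from 3 to 6 days and +0.86 from 1 to 6 days. The mean at 6 days was thus above that at 1 day for SOUL, whereas it was 0.828, 0.915 and 0.915 of the 1-day mean for NEK10, UBAP1L and CCDC169, with overlapping ranges. Summed photoreceptor markers, 10 of the 12 listed genes, also had their lowest median at 1 day. It was 1257 CPM at 1 day (1171 to 1466) and 1536 CPM at 3 days (1347 to 1630). At 6 days it was 1621 CPM (1419 to 1812), above that at 3 days, whereas the SOUL median was lower at 6 days. Inner retina markers, 10 genes, had medians of 751, 788 and 857 CPM at 1, 3 and 6 days. Most of this sum was GLUL, with a median of 551 CPM over all libraries. PDE6H, at 644 CPM, was the largest part of the photoreceptor sum. For both sums the ranges overlapped between ages. The part of either sum in the course of SOUL was not tested. In whole retina, more cells of a type and more RNA per cell cannot be told apart.

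CCDC169 lies on chromosome 1, from 174010478 to 174043245 on the plus strand. At 1 day its level ran from 1.78 over 2.85 to 3.71 CPM. At 3 days it ran from 3.21 over 5.71 to 7.92 CPM, and at 6 days from 1.88 over 2.70 to 3.21 CPM. All 7 libraries of 3 days lay above all of 6 days, by the narrowest of margins for library C42L at 3.21 CPM, which also lay inside the range of 1 day. Means were 2.81 ± 0.794, 5.51 ± 1.58 and 2.57 ± 0.446 CPM (SD, n = 7 each), a ratio of 1.96 from 1 to 3 days and of 0.466 from 3 to 6 days. The log2 difference was +0.85 (SE 0.17) from 1 to 3 days, −0.94 from 3 to 6 days and −0.08 from 1 to 6 days.

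**Figure D1:**
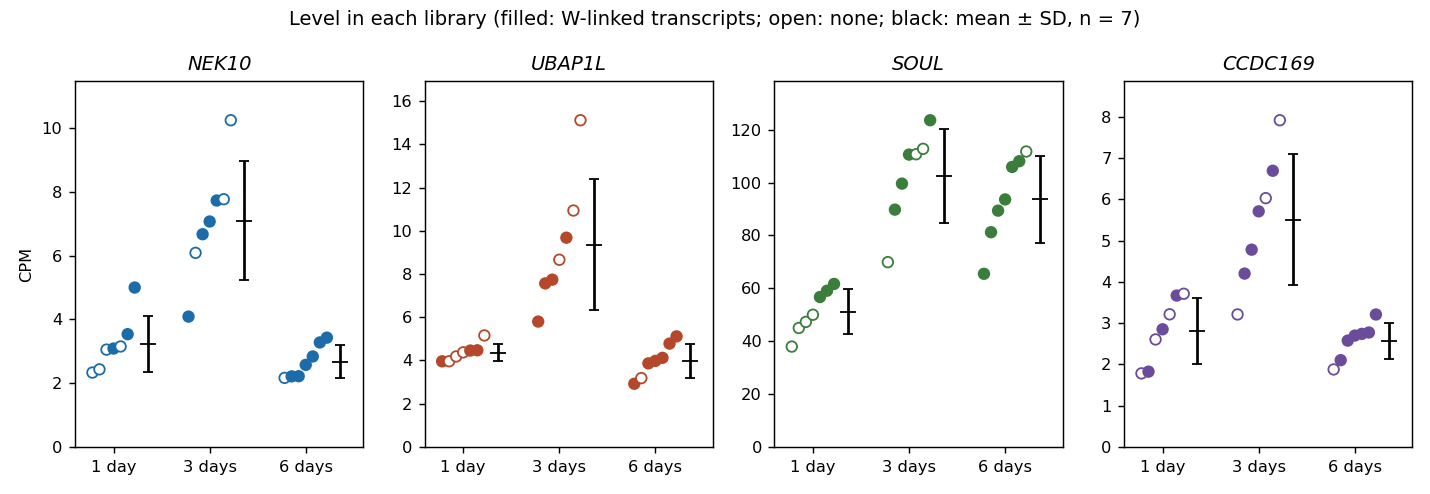
CPM of each gene (vertical axis, starting at 0) in every library at 1, 3 and 6 days, with filled points for libraries with W-linked transcripts, open points for those without, and the mean ± SD of 7 libraries in black. NEK10, UBAP1L and CCDC169 peak at 3 days, and SOUL lies above all its 1-day libraries at 3 and 6 days.

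As background, 7.71% of the 12614 genes rose and 2.43% fell from 1 to 3 days at an adjusted p under 0.05, 17.4% rose and 4.93% fell from 3 to 6 days, and 30.0% rose and 2.57% fell from 1 to 6 days. Nothing is read from these shares for the members, since the same contrasts chose them. The median gene itself moved by +0.07, +0.07 and +0.14 log2 in the 3 contrasts, which median-of-ratios scaling brought to within 0.01 of 0. Under that scaling NEK10 differed by +0.95, −1.29 and −0.35 log2 from 1 to 3, 3 to 6 and 1 to 6 days. UBAP1L differed by +0.89, −1.16 and −0.27, SOUL by +0.91, −0.20 and +0.71, and CCDC169 by +0.78, −0.99 and −0.21 log2. The order of the ages was thus the same for each member under either scaling.

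The 13 libraries with W-linked transcripts gave the same directions, with smaller differences from 1 to 3 days for NEK10, UBAP1L and SOUL. NEK10 differed by +0.65 log2 (SE 0.20) from 1 to 3 days, and its means rested on 3, 4 and 6 libraries. In these libraries the value was −1.06 from 3 to 6 days and −0.42 (SE 0.19) from 1 to 6 days, against −0.22 in all libraries, and all 6 libraries of 6 days lay below the mean of 1 day. UBAP1L differed by +0.75 and −0.82, and CCDC169 by +0.86 and −0.87, from 1 to 3 and from 3 to 6 days. SOUL differed by +0.83 from 1 to 3 days and by +0.59 from 1 to 6 days. From 3 to 6 days it differed by −0.23 (SE 0.12), against −0.13 in all libraries. There 3 of 6 libraries of 6 days lay below all 4 of 3 days. Within these libraries the 3-day and 6-day ranges stayed apart for NEK10, UBAP1L and CCDC169, and the 1-day and 3-day ranges stayed apart for UBAP1L, SOUL and CCDC169. Since the ages chose the members, such separation of ranges, here and above, is a description. It was not counted over all genes.

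**Figure D2:**
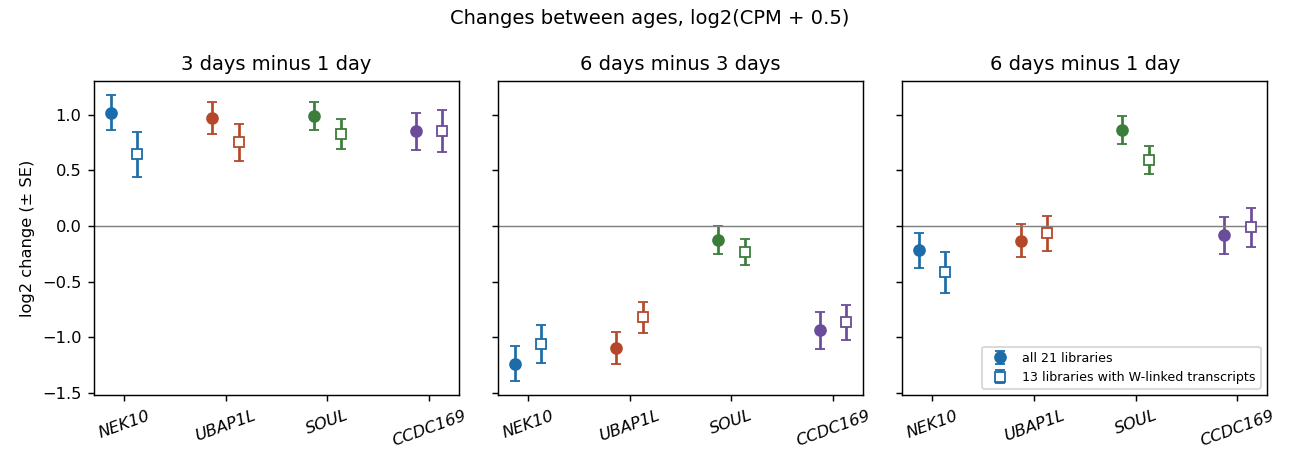
Difference between ages of log2(CPM + 0.5) with its SE (vertical axis) for each gene, with filled circles for all 21 libraries and open squares for the 13 with W-linked transcripts. Circles and squares lie on the same side of 0, with NEK10 at +1.02 and +0.65 from 1 to 3 days and SOUL at +0.86 and +0.59 from 1 to 6 days.

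Presence of W-linked transcripts was not used to choose the members and could be tested, with age in the model. By limma, 4.67% of the 12614 genes differed, 169 higher and 420 lower where W-linked transcripts were present, and none of the 4 members was among them. NEK10 differed by +0.10 log2 (95% interval −0.19 to 0.39, adjusted p = 0.756) and UBAP1L by −0.17 (−0.43 to 0.09, adjusted p = 0.517). SOUL differed by +0.15 (−0.08 to 0.37, adjusted p = 0.507) and CCDC169 by +0.06 (−0.25 to 0.37, adjusted p = 0.860). Each interval includes 0 and also differences of up to 0.37 log2 or more in one direction. At 1 day the SOUL libraries with W-linked transcripts stood at 56.7 to 61.7 CPM and those without at 38.0 to 50.0 CPM, with no overlap, a division noticed after the values were seen and not tested by itself. At 3 days these ranges overlapped, at 89.8 to 124 and 69.9 to 113 CPM. At 6 days the order was the reverse. The 1 library without W-linked transcripts stood at 112 CPM, above those with them at 65.5 to 108 CPM. How often ranges separate in this way was not counted over all genes, so nothing is read from the division at 1 day.

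Whether the difference from 1 to 3 days itself depended on W-linked transcripts was tested as an interaction. Adjusted over all genes, 0% passed, with 448 of 12614 genes at an unadjusted p under 0.05. NEK10 had mean log2 levels of 2.10 and 2.75 at 1 and 3 days with W-linked transcripts, and of 1.69 and 3.06 without. The interaction was −0.73 log2 (95% interval −1.32 to −0.14), a smaller difference where W-linked transcripts were present. It did not pass adjustment over all genes in limma (adjusted p = 0.999, unadjusted p = 0.0176). UBAP1L gave −0.51 (−1.03 to 0.01, adjusted p = 0.999), SOUL −0.26 (−0.72 to 0.20, adjusted p = 0.999) and CCDC169 −0.00 (−0.71 to 0.70, adjusted p = 1.00). These intervals are wide, since cells of the design held 3 or 4 libraries. At 6 days 1 library lacked W-linked transcripts, so no interaction was tested there.

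The final letter of the library code, L or R, was tested in the same way. Of all genes 0% passed by limma, with 349 at an unadjusted p under 0.05. The values for L minus R were −0.15 log2 for NEK10 (95% interval −0.42 to 0.12), +0.13 for UBAP1L (−0.13 to 0.38), +0.13 for SOUL (−0.09 to 0.35) and −0.26 for CCDC169 (−0.54 to 0.02). The adjusted p was 1.00 for each of them.

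Libraries of one age differed more for the members than for most genes. The SD around the age means was 0.34 log2 for CCDC169, 0.31 for NEK10, 0.29 for UBAP1L and 0.26 for SOUL, against a median of 0.18 over the genes kept. Of these genes, 91.6%, 89.1%, 85.4% and 79.2% had a smaller SD, with no matching for level. The pooled SD does not hold at each age. For UBAP1L the SD was 0.12 log2 at 1 day, 0.42 at 3 days and 0.26 at 6 days. The estimated reads per library behind these values were 60.7 to 288 for CCDC169, 70.0 to 373 for NEK10, 99.1 to 475 for UBAP1L and 1530.0 to 4703 for SOUL, and the part of counting error was not tested.

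Deviations from the age means, which the choice of members did not use, were compared between the 6 pairs of members over 21 libraries. UBAP1L and CCDC169 deviated together, with Spearman's rho of 0.614 (permutation within age, p = 0.00401, adjusted p = 0.0241 over 6 pairs) and Pearson's r of 0.505 (permutation p = 0.0327, adjusted p = 0.196). Leaving out the 2 libraries farthest from the median of UBAP1L gave r of 0.525 (permutation, adjusted p = 0.0538) and rho of 0.60 (permutation, adjusted p = 0.0449). Within single ages of 7 libraries r was 0.577 at 1 day, 0.459 at 3 days and 0.846 at 6 days. The call rested on the rank measure and on the scaling: after median-of-ratios scaling rho was 0.491 (permutation, adjusted p = 0.176). Adjustment was over the 6 pairs for each measure by itself. The permutation does not remove differences between libraries that many genes share. How often other pairs of genes reach such a rho was not counted, so the link cannot be called particular to these genes.

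None of the other pairs passed. NEK10 and CCDC169 had r of 0.447 (permutation p = 0.0758, adjusted p = 0.227) and rho of 0.403 (permutation p = 0.0899, adjusted p = 0.270). For NEK10 and UBAP1L r was 0.225 and rho 0.342 (permutation, adjusted p = 0.614 and 0.30), and for NEK10 and SOUL r was 0.222 and rho 0.283 (adjusted p = 0.614 and 0.353). SOUL showed r of 0.0341 and rho of 0.0883 with UBAP1L (adjusted p = 0.893 and 0.865), and r of 0.0734 and rho of −0.0273 with CCDC169 (adjusted p = 0.893 and 0.912), by permutation. Without the 2 libraries farthest from the median of the first gene, r was 0.520 for NEK10 with CCDC169, 0.351 for NEK10 with UBAP1L, 0.142 for NEK10 with SOUL, 0.0311 for UBAP1L with SOUL and −0.201 for SOUL with CCDC169.

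**Figure D3:**
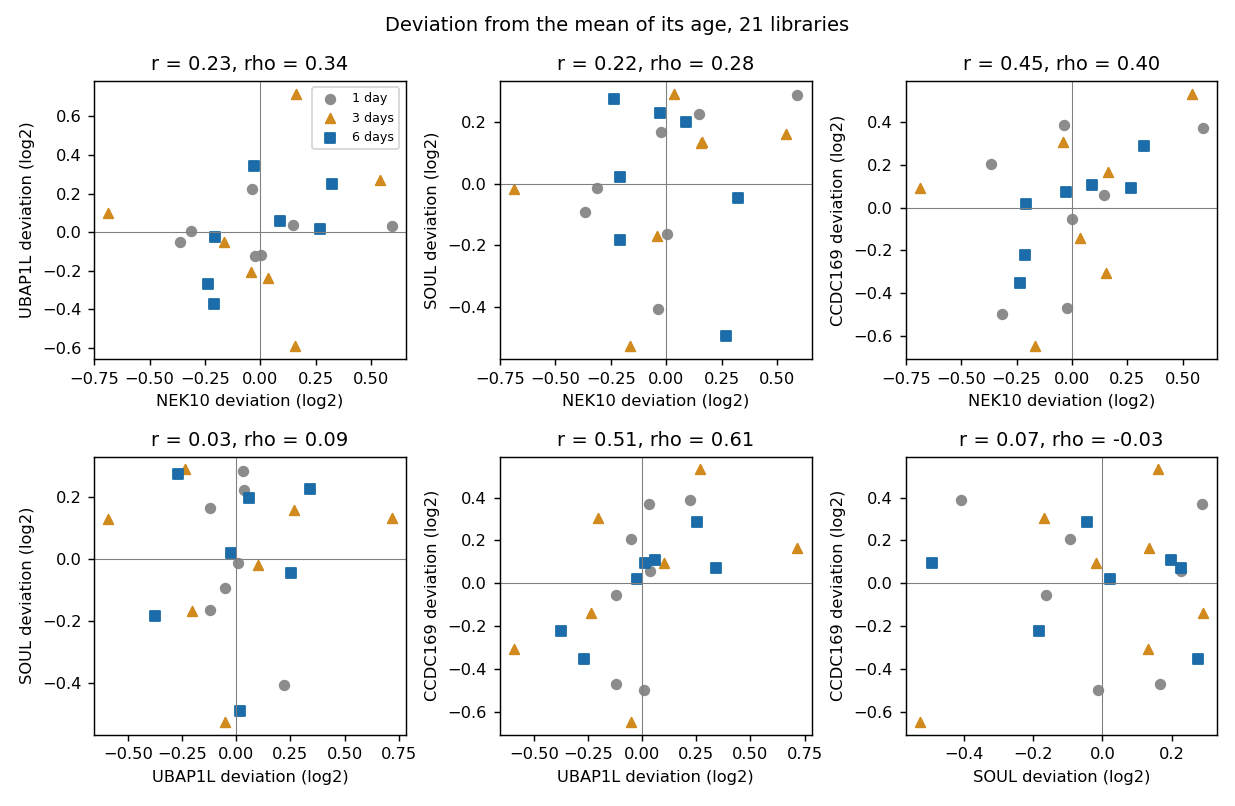
Deviation of each library from the mean of its age in log2(CPM + 0.5), for the 6 pairs of genes (one gene per axis), with grey circles for 1 day, orange triangles for 3 days and blue squares for 6 days. The points of UBAP1L and CCDC169 rise together (rho 0.614), and those of SOUL with UBAP1L show no trend (rho 0.0883). How often other pairs of genes rise together in this way was not counted.

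Likeness was ranked without the members and without symbols beginning with LOC, ENSGALG or MIR. A gene left out may be more alike than those named. The differences between ages enter Pearson's r of log2(CPM + 0.5) and all libraries are shared, so the likeness is a description. Ranked genes whose pattern over the 21 libraries was most like that of each member are given here. For NEK10 they were ABCG1, a cholesterol transporter (r = 0.880), ST18, a zinc finger transcription factor (0.866), KPNA2, a nuclear import adaptor (0.858), NDRG1, a stress-responsive gene (0.858), and PTN, the growth factor pleiotrophin (0.854). NDRG1 stood at 70.6 ± 10.7, 143 ± 18.5 and 79.5 ± 9.25 CPM at 1, 3 and 6 days (SD, n = 7 each). All 5 had their highest mean at 3 days, as NEK10 did. KPNA2 was low, with means of 0.619, 1.32 and 0.572 CPM at 1, 3 and 6 days.

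Among the genes ranked, PDK4 was the most like both UBAP1L and CCDC169 (r = 0.919 and 0.90). PDK4, a kinase that inhibits pyruvate dehydrogenase, stood at 20.7 ± 4.18, 42.6 ± 8.76 and 21.9 ± 3.70 CPM (SD, n = 7 each). UBAP1L was further like ST18 (0.869), BMPER, a BMP-binding protein (0.866), RRAD, a small GTPase (0.860), and DLL4, a Notch ligand (0.859). CCDC169 was further like MMP23B, a metalloproteinase (0.889), CFL2, an actin-severing cofilin (0.878), GHRL, the ghrelin precursor (0.866), and CPNE1, a calcium-dependent lipid-binding copine (0.864). GHRL and MMP23B were low, with means of 0.814 and 2.95 CPM at 3 days.

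SOUL was most like PCYT1A, an enzyme of phosphatidylcholine synthesis (r = 0.912), OPN1MSW, a cone pigment (0.906), and PPP1R3C, a glycogen-targeting subunit of protein phosphatase (0.906). Next came NR1D1_1, an entry named for NR1D1, a repressor of the circadian clock (0.895), and CDR2L (0.887). No other NR1D1 entry is reported here. OPN1MSW stood at 32.1 ± 8.45, 62.4 ± 13.6 and 60.9 ± 9.54 CPM (SD, n = 7 each), and NR1D1_1 at 3.41 ± 1.29, 8.81 ± 2.75 and 9.73 ± 2.88 CPM. These genes, like SOUL, were lowest on average at 1 day.

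Of the same ranked genes, the 3 most alike with age removed were named as well. For SOUL they were PPP1R3C (r of deviations 0.763), WASHC1 (0.761) and DUSP8 (0.757), and for CCDC169 CFL2 (0.787), MMP23B (0.753) and TMEM132B (0.750). NEK10 was most like SLC25A3 (0.729), DDA1 (0.719) and SUCLG1 (0.714), and UBAP1L most like SRSF10 (0.777), SLC16A9 (0.756) and EMC7 (0.719). PDK4, named above for both genes, had an r of deviations of 0.707 with UBAP1L and 0.711 with CCDC169. GHRL had a higher one with CCDC169, 0.724. How many genes lay between PDK4 and the 3 named for each was not counted.

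**Figure D4:**
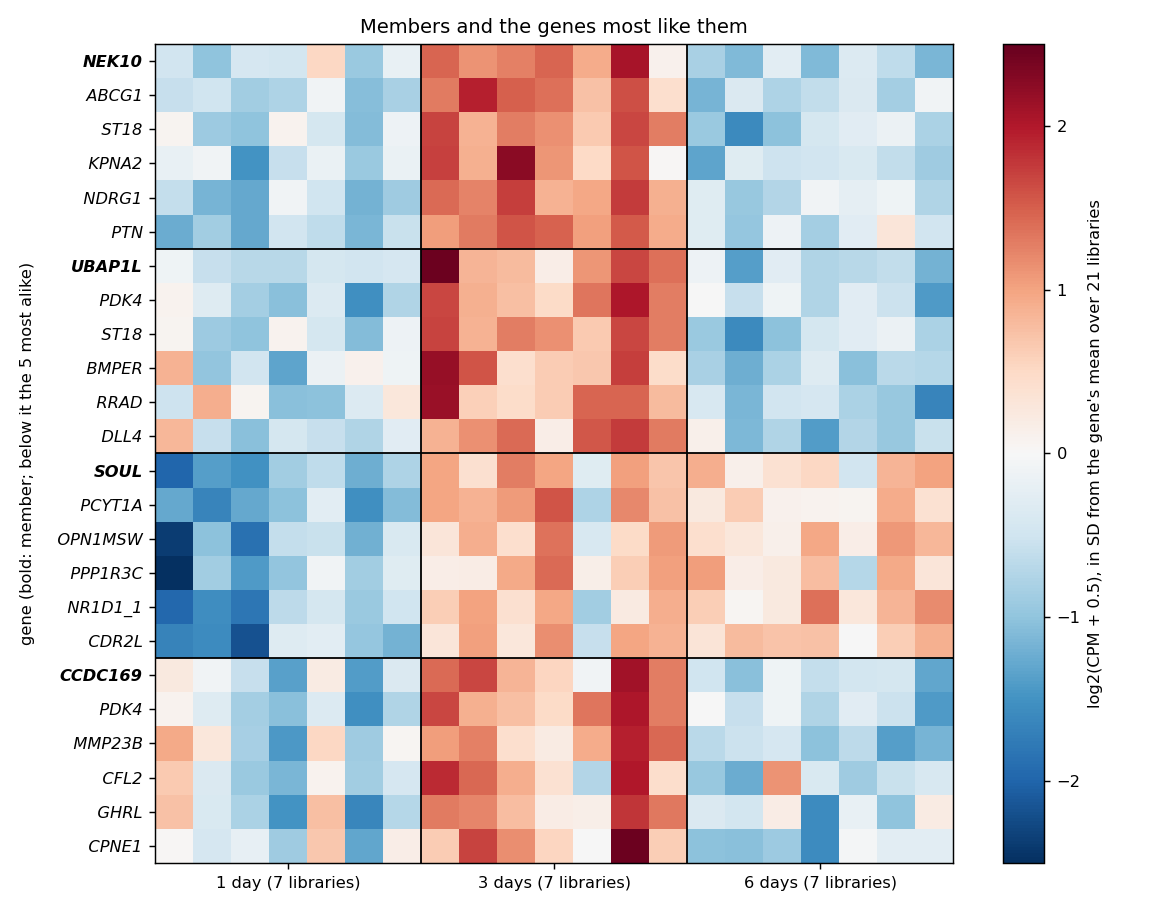
Each row is a gene, with members in bold and the 5 most alike of the ranked genes under each. The ranking left out members and symbols beginning with LOC, ENSGALG or MIR. Columns are the 21 libraries in blocks of 7 for 1, 3 and 6 days, and colour gives log2(CPM + 0.5) in SD from the gene's mean (red above, blue below). The blocks of NEK10, UBAP1L and CCDC169 are red at 3 days, and that of SOUL is blue at 1 day.

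Genes next to the members were compared by the positions of the table. LRRC3B, 604 bases from the 3′ end of NEK10 and on the other strand, had means of 2.77 ± 0.456, 2.42 ± 0.344 and 2.59 ± 0.361 CPM (SD, n = 7 each), with −0.16 log2 from 1 to 3 days (limma, adjusted p = 0.330), against +1.02 for NEK10. SLC4A7, 5161 bases away on the other side, gave −0.08 (adjusted p = 0.369). PDCD7, which overlaps UBAP1L on the same strand, stood at 7.88 ± 0.871, 8.03 ± 0.876 and 9.07 ± 1.06 CPM, with +0.03 log2 from 1 to 3 days (limma, adjusted p = 0.882). CLPX, on the far side of PDCD7, gave +0.00 (adjusted p = 0.994). RASL12, 5305 bases from UBAP1L at its other side and on the same strand, stood at 0.162 ± 0.117, 0.466 ± 0.231 and 0.123 ± 0.101 CPM (SD, n = 7 each). Its mean, like that of UBAP1L, was highest at 3 days, at a level below the filter, so it was not tested.

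FANCM, which overlaps SOUL on the other strand, rose by 0.27 log2 from 1 to 6 days (limma, adjusted p = 0.00268), against +0.86 for SOUL. FKBP3, 4212 bases away, rose by 0.34 (limma, adjusted p = 0.0288). In this contrast 30.0% of all genes rose, and the median gene moved by +0.14 log2. From 1 to 3 days 7.71% of all genes rose, and from 3 to 6 days 4.93% fell. Neighbours were not fitted again with median-of-ratios scaling. SPG20, which overlaps CCDC169 on the same strand, stood at 23.5 ± 1.997, 34.5 ± 4.06 and 33.1 ± 4.06 CPM (SD, n = 7 each). It rose by 0.54 log2 from 1 to 3 days (limma, adjusted p = 0.000145) and gave −0.06 from 3 to 6 days (adjusted p = 0.652), where CCDC169 gave −0.94. DCLK1, 36332 bases from CCDC169, rose by 0.20 from 1 to 3 days (adjusted p = 0.0143) and fell by 0.23 from 3 to 6 days (adjusted p = 0.00249), and CCNA1 was below the filter. At a tolerance of 0.1 read, the estimated reads were whole in 21 of 21 libraries for NEK10 and SOUL, in 15 for UBAP1L and in 6 for CCDC169. How reads in the overlaps were assigned, and whether the counting used the strand, is not given in the sources used here, and the part of SPG20 in the course of CCDC169 was not tested.

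Families and pathways around the members were counted with the members left out, and are set against the shares of all genes. With median-of-ratios scaling those shares were 4.23% rising and 5.98% falling from 1 to 3 days, 9.46% and 7.95% from 3 to 6 days, and 8.40% and 8.47% from 1 to 6 days. With W-linked status as a covariate they were 7.81% and 2.85%, 15.0% and 5.24%, and 21.6% and 2.09% in the same order. Of the 9 other NEK kinases tested, of 10 listed, 0 rose and 0 fell from 1 to 3 days by limma (1 and 0 at an unadjusted p under 0.05). In this contrast 7.71% of all genes rose and 2.43% fell. The median of the list was +0.05 log2, against +0.07 for all genes. From 3 to 6 days 2 rose, NEK4 by 0.20 (adjusted p = 0.0442) and NEK9 by 0.32 (adjusted p = 0.0174), and both also rose from 1 to 6 days, 22.2% of the list in each contrast against 17.4% and 30.0% of all genes. After median-of-ratios scaling 0 of the 9 rose or fell in any contrast. NEK11, named for its kinship, stood at 1.502 ± 0.307, 1.54 ± 0.330 and 1.55 ± 0.393 CPM (SD, n = 7 each).

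Of 28 ESCRT genes tested, of 31 listed, 2 rose and 1 fell from 1 to 3 days, 10 rose and 0 fell from 3 to 6 days, and 11 rose and 0 fell from 1 to 6 days. The rises were 7.14%, 35.7% and 39.3% of the list, against 7.71%, 17.4% and 30.0% of all genes. The falls were 3.57%, 0% and 0% of the list, against 2.43%, 4.93% and 2.57% of all genes. MVB12B, an ESCRT-I subunit, rose by 0.34 log2 from 1 to 6 days (limma, adjusted p = 0.000196), and PDCD6IP, an ESCRT-associated adaptor, rose by 0.21 (adjusted p = 0.000271). CHMP3, an ESCRT-III subunit, rose by 0.43 from 3 to 6 days (adjusted p = 0.000288). IST1, also of ESCRT-III, fell by 0.33 from 1 to 3 days (adjusted p = 0.00406) and rose by 0.34 from 3 to 6 days (adjusted p = 0.00140), the opposite of the order of UBAP1L. UBAP1 itself, named for its kinship, stood at 49.9 ± 7.18, 45.6 ± 5.89 and 49.99 ± 7.04 CPM (SD, n = 7 each) and passed in no contrast. With median-of-ratios scaling 1 rose and 2 fell from 1 to 3 days, 4 rose and 1 fell from 3 to 6 days, and 2 rose and 1 fell from 1 to 6 days, so the balance of rises over falls depended on the scaling. With W-linked status as a covariate 7 rose from 1 to 6 days, against 21.6% of all genes.

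Among 22 heme genes tested, of 27 listed, 2 rose and 0 fell from 1 to 3 days, 1 rose and 0 fell from 3 to 6 days, and 4 rose and 0 fell from 1 to 6 days. The rises were 9.09%, 4.55% and 18.2% of the list, against 7.71%, 17.4% and 30.0% of all genes, so the last 2 shares lay below those of all genes. Of all genes 2.43%, 4.93% and 2.57% fell in these contrasts. ALAS1, the first enzyme of heme synthesis, rose by 0.36 log2 from 1 to 3 days (limma, adjusted p = 0.0404). SLC25A38, a mitochondrial glycine carrier, rose by 0.36 from 1 to 3 days (adjusted p = 0.00739) and by 0.53 from 1 to 6 days (adjusted p = 0.000152). ABCB10, a mitochondrial transporter, rose by 0.38 from 1 to 6 days (adjusted p = 0.00279). The relatives of SOUL passed in no contrast, with HEBP1 at 18.97 ± 5.27, 20.9 ± 4.60 and 19.9 ± 2.73 CPM and HEBP2 at 6.93 ± 2.08, 5.26 ± 1.05 and 5.59 ± 1.20 CPM (SD, n = 7 each). Median-of-ratios scaling gave 1 rise and 2 falls from 1 to 3 days and 2 rises and 1 fall from 1 to 6 days.

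Of 32 genes of motile cilia and axonemes tested, of 51 listed, 0 rose and 0 fell from 1 to 3 days by limma (5 and 4 at an unadjusted p under 0.05), 3 rose and 2 fell from 3 to 6 days, and 3 rose and 2 fell from 1 to 6 days. From 1 to 3 days 7.71% of all genes rose and 2.43% fell. The rises of the last 2 contrasts were each 9.38% of the list, against 17.4% and 30.0% of all genes. The falls of these 2 contrasts were each 6.25%, against 4.93% and 2.57%. DNAH3, an axonemal dynein heavy chain, stood at 12.3 ± 1.81, 14.3 ± 0.931 and 10.03 ± 1.83 CPM (SD, n = 7 each) and fell by 0.50 log2 from 3 to 6 days (limma, adjusted p = 0.00104). DNAAF5, a dynein assembly factor, rose by 0.43 from 3 to 6 days (adjusted p = 0.00543). GAS8, a dynein regulatory protein, rose by 0.44 (adjusted p = 0.00551) and STK36, a kinase of the central pair, by 0.63 (adjusted p = 0.00128) from 1 to 6 days. With median-of-ratios scaling 0 rose and 2 fell from 1 to 3 days, 1 rose and 2 fell from 3 to 6 days, and 1 rose and 3 fell from 1 to 6 days.

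**Figure D5:**
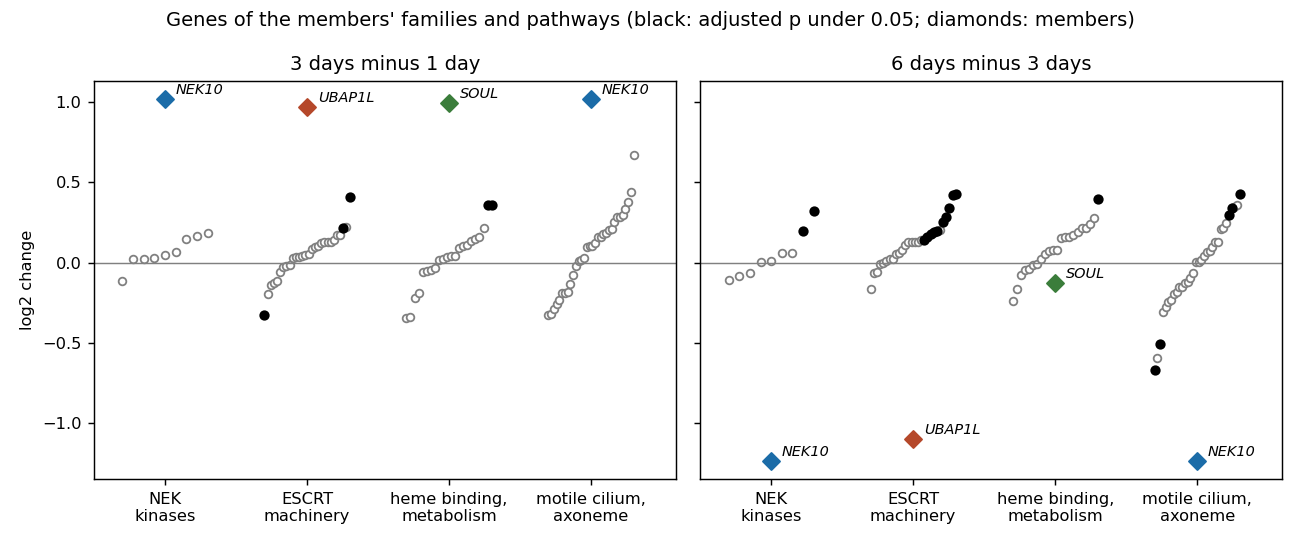
Log2 difference (vertical axis) of each tested gene of the 4 lists from 1 to 3 days and from 3 to 6 days, in black where the adjusted p was under 0.05 and open otherwise, with diamonds for members. The diamonds of NEK10, UBAP1L and SOUL lie near +1 from 1 to 3 days, above every other gene of their lists. The members were chosen for wide differences between ages and the list genes were not, so nothing is read from this.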

How the data were processed

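The authors deposited 1 table of CPM values for 18631 genes in 21 libraries; its lowest value, an offset of 0.0001, was subtracted. Per the submitters' processing notes, STAR, Partek and GRCg6a were used, with versions, annotation and use of the strand not given in the sources used here. Per the labels' protocols, libraries were made with a stranded kit after ribosomal depletion. In each library 94.3% to 95.6% of low values were multiples of a fixed step, to within 0.1 of it, and estimated reads take that step as 1 read. The rest were not whole, so no count test was run.

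Genes with at least 0.5 CPM in 7 libraries were analysed as log2(CPM + 0.5) in limma 3.58.1 (R 4.3.3), with a mean-variance trend, two-sided tests and Benjamini-Hochberg adjustment over 12614 genes; an adjusted p under 0.05 passed. The pseudocount understates differences of low genes. Pairs of members were tested by 100000 two-sided permutations of libraries within age. Groups came from the titles. Workflows were tested on simulated data.

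The members and the gene lists (NEK kinases, ESCRT machinery, heme genes, motile cilia, and markers of 7 cell types) were chosen with earlier results of these data known. Genes named are the members, the 5 most alike over 21 libraries and 3 most alike within age, up to 4 genes per list with the smallest p of any difference between ages, neighbours and overlapping genes, and HINTW. A few genes that this rule names are not reported here. Others, named for kinship or as markers, were added beside them. The most alike genes were ranked without the members and without symbols beginning with LOC, ENSGALG or MIR. Alternatives were pseudocounts of 0.05 and 2.5, median-of-ratios scaling, quantile normalization, no filter, the W-linked division as covariate or alone, and leaving out each library.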

Additional observations from a re-analysis of the deposited data

Results flagged for a closer look

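UBAP1L at 1 day had 1 library far from the other 6: C10R stood at 5.16 CPM, and its gap to the next library was 0.573 of the whole range of the group, just past Dixon's 95% critical value for 7 libraries. In all 12 groups of a member and an age were looked at, and chance marks about 1 in 20 such groups. The same library had the highest CCDC169 level (3.71 CPM) and the lowest SOUL level (38.0 CPM) of the 7 at 1 day.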

How the results depend on the processing

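No paired analysis was possible because the groups share no library number. Of the differences between ages of the members, 3 moved by more than the spread between libraries: NEK10 from 1 to 3 days was +0.65 and SOUL from 1 to 6 days +0.59 in libraries with W-linked transcripts alone, and NEK10 from 3 to 6 days was −0.87 with a pseudocount of 2.5. The other 81 values, and all 252 that left out a library, moved by less. Values near 0 changed sign. The CCDC169 interaction was 0.00469 with a pseudocount of 0.05, 0.00205 with median-of-ratios scaling and −0.34 to 0.25 on leaving out single libraries, and its W-linked difference −0.043 to 0.16 likewise. For UBAP1L with SOUL, median-of-ratios scaling gave r of −0.00038 and rho of −0.0143. For SOUL with CCDC169, r was −0.201 without 2 libraries and −0.0148 with that scaling, and rho was 0.0182 with W-linked status removed. The rho of UBAP1L with CCDC169 lost its call with that scaling (0.491). Rises of list genes from 1 to 3, 3 to 6 and 1 to 6 days became, with median-of-ratios scaling, 0, 0 and 0 for NEK kinases, 1, 4 and 2 for ESCRT, 1, 1 and 2 for heme and 0, 1 and 1 for cilia; falls became 2, 1 and 1 for ESCRT, 2, 0 and 1 for heme and 2, 2 and 3 for cilia. With W-linked status as a covariate, 1 NEK kinase rose from 3 to 6 days, and from 1 to 6 days 7 ESCRT genes rose and 1 cilium gene fell. The cause was not tested. The 3 low members rest on few reads, and 3 or 4 libraries per cell limit the interaction.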
